A study of Mus musculus with 20 samples.

Results

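The 42 genes described here encode the contractile proteins of skeletal muscle, the proteins that release and store calcium in its fibres, its glycolytic enzymes and the regulators of its fibre types. Members are defined by gene symbol. All 42 were found among the 22180 genes of the array table, each read by the brightest probe set (a group of array probes for 1 transcript) that carried its symbol alone. By role they comprised 14 genes of fast fibres, 7 of slow fibres, 1 perinatal myosin, 8 filament and sarcomere genes of both fibre kinds, 3 kinases or regulators of contraction, 2 calcium channels, 4 energy enzymes and 3 regulators of muscle growth or differentiation.

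Abdominal skin of 20 mice was hybridised to Affymetrix arrays, with 5 animals in each of 4 groups. All mice carried the floxed allele zfp36 fl/fl, and the knockout groups also carried K14 cre, in which the keratin 14 promoter drives Cre in keratinocytes and not in muscle fibres. Zfp36 encodes tristetraprolin, which binds AU-rich messenger RNAs and speeds their decay. Control and knockout skin was either mock treated or painted with imiquimod, which activates Toll-like receptor 7 and causes a psoriasis-like inflammation, on 5 days, and was taken 4 hours after the last dose. Ages were not given in the sources used here.

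Mouse skin lies on the panniculus carnosus, a thin sheet of striated muscle made mostly of fast fibres, and a full-thickness sample can include it. In a sarcomere, myosin heavy and light chains pull on actin filaments once calcium binds troponin on the thin filament. Each of these proteins comes in fast and slow forms from separate genes, and the mix of forms sets the fibre type. Muscle innervation, load and injury are known to shift that mix, with type IIb, IIx and IIa fibres ordered from the fastest to the slowest of the fast types.

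Values were read as log2 (the error after each ± on a difference is the SE of the fit, with 5 arrays in each group), a base inferred from their range of 1.41 to 13.33. Array medians lay between 4.94 and 5.04, and arrays correlated between 0.953 and 0.988 within groups. Zfp36 itself was lower in knockout arrays, at 3.47 to 7.12 against 7.22 to 7.74 in mock-treated controls and at 5.47 to 7.41 against 7.68 to 8.40 under imiquimod (exact two-sided permutation p = 0.00794 in each, the smallest that 5 against 5 allows). In the mock groups that p rose to 0.0556 without control mock replicate 3. Knockout arrays spread widely, and limma over all genes did not call Zfp36 in either treatment (adjusted p = 0.999 and 0.221). Defining muscle markers were present in all 20 arrays: Acta1 read 9.48 to 11.61, Myh4 8.63 to 11.28, Tnnt3 8.44 to 10.36, Ckm 7.36 to 10.14 and Actn3 6.96 to 9.79. No detection calls were used, so it is unknown which low values lay above background. Fewer fibres in a sample and less RNA per fibre cannot be told apart in such bulk tissue.

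**Figure D1:**
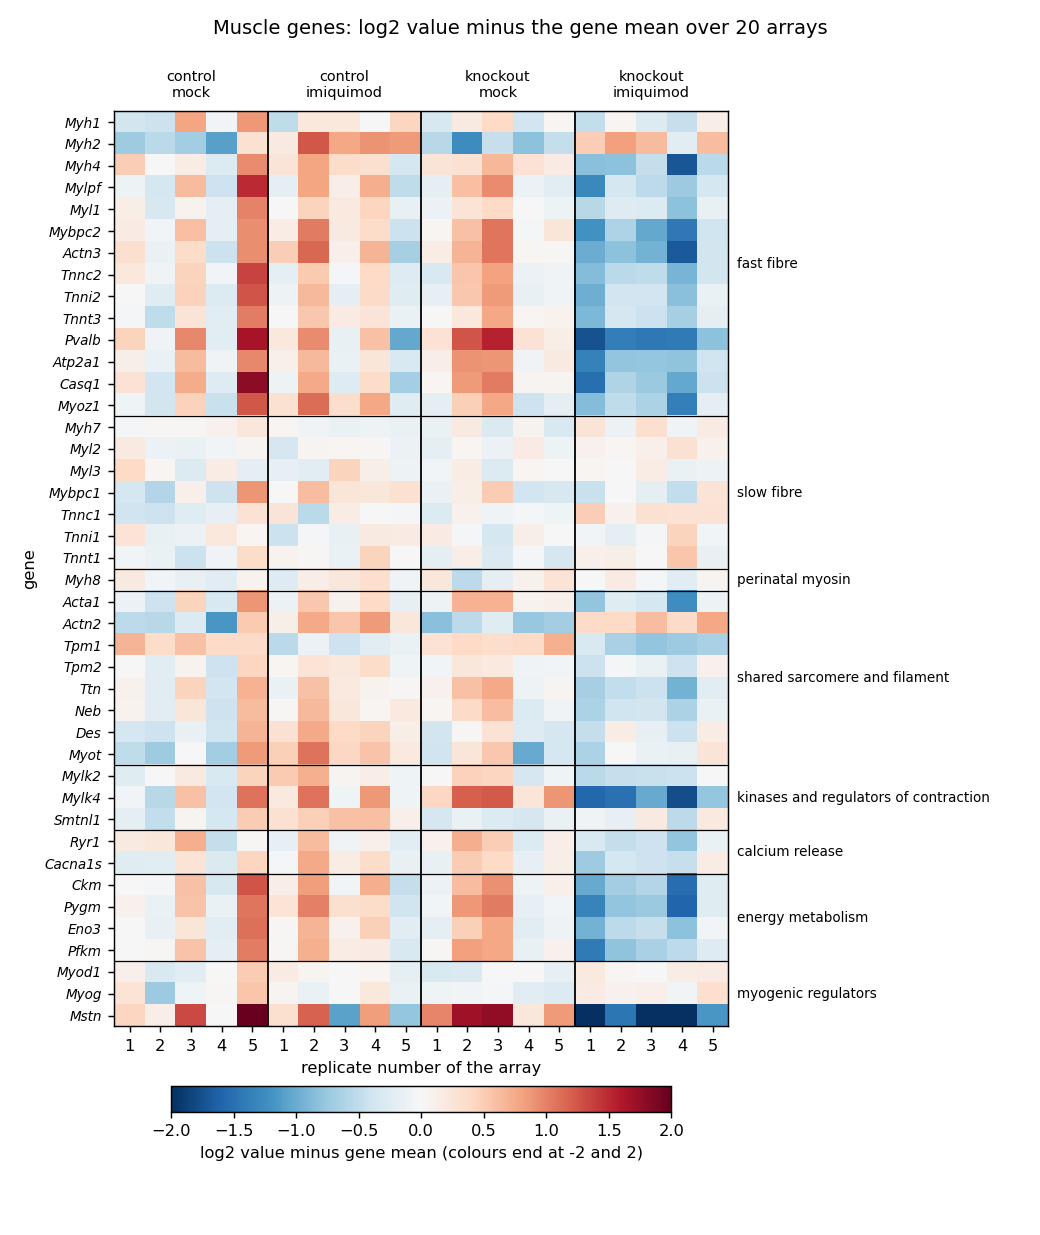
Each row is 1 of the 42 genes, ordered by role, and each column 1 of the 20 arrays, ordered by group and replicate number; colour is the log2 value minus the gene's mean over all arrays. In the imiquimod-treated knockout columns most fast-fibre, calcium and energy genes lie below their mean while Myh2 and Actn2 lie above it in most arrays, and control mock replicate 5 is high in most rows.

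Myosin heavy chain genes, the motors that define fibre types, moved apart. Myh4, which encodes the type IIb myosin of the fastest fibres, read 10.83, 10.35, 10.49, 10.07 and 11.28 in mock-treated controls and 10.60, 11.12, 10.70, 10.66 and 9.98 in imiquimod-treated controls. In knockouts it read 10.59, 10.65, 11.01, 10.62 and 10.50 after mock treatment and 9.51, 9.52, 9.86, 8.63 and 9.80 after imiquimod. All 5 imiquimod-treated knockout arrays lay below every array of the 3 other groups. Myh4 thus fell by 1.21 ± 0.24 on the log2 scale in knockouts (adjusted p = 0.000921), a 2.31-fold lower level, and in controls its difference was 0.01 (adjusted p = 0.991).

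Myh2, the gene of the type IIa myosin of oxidative fast fibres, was higher after imiquimod in both genotypes. Its values were 6.82, 7.0, 6.84, 6.45 and 7.84 in mock-treated controls and 7.71, 8.77, 8.30, 8.43 and 8.39 in imiquimod-treated controls. Mock-treated knockouts read 6.98, 6.27, 7.07, 6.71 and 7.06, and imiquimod-treated knockouts 8.03, 8.35, 8.16, 7.30 and 8.15. In controls the groups overlapped through mock replicate 5 alone, and in knockouts they did not overlap. Myh2 rose 2.51-fold in controls (log2 difference 1.33 ± 0.24, adjusted p = 0.000829) and 2.27-fold in knockouts (1.18 ± 0.24, adjusted p = 0.00139).

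Myh1, which encodes the type IIx myosin, did not pass any test. Its arrays read 9.0, 8.94, 10.15, 9.31 and 10.23 in mock-treated and 8.86, 9.57, 9.57, 9.37 and 9.79 in imiquimod-treated controls. In knockouts they read 9.04, 9.54, 9.77, 8.99 and 9.41 after mock and 8.88, 9.41, 9.09, 8.90 and 9.5 after imiquimod. The groups overlapped throughout, with imiquimod differences of -0.09 in controls (adjusted p = 0.882) and -0.19 in knockouts (adjusted p = 0.666).

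The slow myosin gene Myh7 stayed within 4.19 to 4.82 over all arrays. It read 4.46, 4.52, 4.52, 4.59 and 4.72 in mock-treated controls, 4.54, 4.43, 4.36, 4.40 and 4.36 in imiquimod-treated controls, 4.36, 4.68, 4.20, 4.56 and 4.19 in mock-treated knockouts, and 4.75, 4.38, 4.82, 4.43 and 4.66 in imiquimod-treated knockouts. No group stood apart, and no comparison of Myh7 passed. The perinatal myosin gene Myh8 likewise had imiquimod differences of 0.11 and 0.02 in controls and knockouts.

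**Figure D2:**
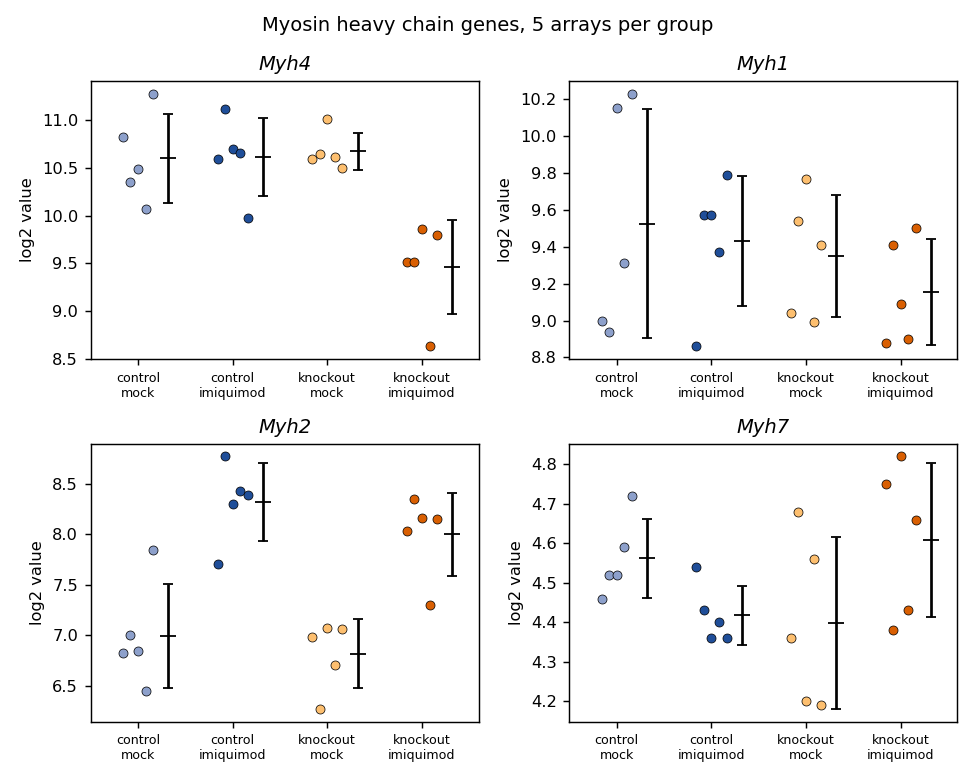
Points are log2 values of 5 arrays per group for 4 myosin heavy chain genes, and bars beside them give the mean and SD; each panel has its own vertical axis. Myh4 is lowest in imiquimod-treated knockouts, at 8.63 to 9.86, Myh2 is higher after imiquimod in both genotypes, and Myh1 and Myh7 overlap between all groups.

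Myh2, Myh1 and Myh4 are direct neighbours on chromosome 11, between Myh3 and Myh8. Their coding sequences are close, so their probe sets may share signal, which was not tested. The 250 bases before the start of Myh4 and Myh2 are shown because these neighbours moved in opposite directions in knockouts (RefSeq, build GRCm38.p6, plus strand, 5′ to 3′, chr11:67237562-67237811 for Myh4 and chr11:67170777-67171026 for Myh2). Capitals mark the E-box CAGCTG bound by MyoD and myogenin, the CArG box bound by serum response factor, the binding motif of MEF2 and TATAAA, the last on the gene's strand and the others on both. MEF2 was searched in a strict form (CTA, then 4 bases of A or T, then TAG) and a wider form that also allows T at the first and A at the last base and so contains the strict one.
Myh4: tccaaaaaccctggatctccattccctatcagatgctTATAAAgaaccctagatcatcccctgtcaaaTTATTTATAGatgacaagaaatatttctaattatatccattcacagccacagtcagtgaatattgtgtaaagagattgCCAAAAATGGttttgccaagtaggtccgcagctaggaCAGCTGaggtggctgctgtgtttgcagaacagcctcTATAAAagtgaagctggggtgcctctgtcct
Myh2: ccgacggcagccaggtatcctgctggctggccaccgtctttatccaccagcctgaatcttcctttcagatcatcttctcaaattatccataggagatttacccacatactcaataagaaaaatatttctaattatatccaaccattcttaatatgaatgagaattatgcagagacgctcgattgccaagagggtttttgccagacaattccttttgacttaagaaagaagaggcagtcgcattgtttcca
The Myh4 window held 1 E-box, 67 to 62 bases before the start, 1 CArG box at 104 to 95 bases, 1 wider MEF2 match at 182 to 173 bases and 2 TATAAA matches, at 213 to 208 and 31 to 26 bases. The Myh2 window held no match to any of these motifs. Such a match is a string of letters and no measured binding site.

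Of the 42 genes, 34 had promoter windows in that table, 41 windows in all. An E-box CAGCTG lay in windows of 15 of the 34 (44.1%), against 14.7% of 27025 genes with windows. They were Acta1, Atp2a1, Cacna1s, Casq1, Ckm, Des, Mybpc1, Myh4, Myl1, Myl2, Mylk4, Mylpf, Pygm, Tnni1 and Tpm2. A CArG box lay in 3 of the 34, Acta1, Myh4 and Myl3 (8.82%, against 1.62% of all), and TATAAA in 5 (14.7%, against 8.94%). The wider MEF2 form lay in 6, Myh1, Myh4, Myh8, Mylk4, Pvalb and Ttn (17.6%, against 3.42%), and the strict form in Ttn alone (2.94%, against 0.592%). CAGCTG reads the same on both strands, and no marked match overlapped another in the windows shown.

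Imiquimod was first compared with mock treatment in control skin. Of the 42 genes 3 were called higher, Myh2, Actn2 and Smtnl1, or 7.14% against 6.47% of all genes, and 1 was called lower, Tpm1, or 2.38% against 4.37% of all genes. Both shares were near those of all genes, and the median log2 difference of the 42 was 0.016 against -0.004 over all genes.

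Actn2, the alpha-actinin of the Z-disc in all fibre types, read 6.88, 6.85, 7.14, 6.24 and 7.93 in mock-treated and 7.52, 8.16, 7.97, 8.26 and 7.63 in imiquimod-treated controls. Knockouts read 6.57, 6.89, 7.17, 6.65 and 6.71 after mock and 7.79, 7.81, 8.03, 7.80 and 8.19 after imiquimod. Only control mock replicate 5 reached into the treated range. Actn2 rose by 0.90 ± 0.22 in controls (adjusted p = 0.00991) and by 1.13 ± 0.22 in knockouts (adjusted p = 0.000894). The control call was lost with the 2 groups fitted alone (adjusted p = 0.0527) and with the hair genes as a covariate (0.47, adjusted p = 0.127).

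Tpm1 encodes an alpha-tropomyosin that winds along actin in muscle fibres and, as other isoforms, in smooth muscle and many non-muscle cells. It read 9.58, 9.27, 9.49, 9.28 and 9.29 in mock-treated and 8.36, 8.78, 8.48, 8.69 and 8.76 in imiquimod-treated controls, and 9.19, 9.30, 9.25, 9.28 and 9.61 against 8.60, 8.25, 8.11, 8.18 and 8.25 in knockouts. Treated and mock arrays did not overlap in either genotype. The fall of Tpm1 was 0.77 ± 0.11 in controls and 1.05 ± 0.11 in knockouts (adjusted p = 5.84e-05 and 8.16e-07). Beside it, 1 of 10 smooth muscle genes was lower in controls, Smtn at -0.88 (adjusted p = 0.038), and 2 of 10 in knockouts, Acta2 and Tagln at -0.54 and -0.51 (adjusted p = 0.0179 and 0.029), with list medians of -0.098 and -0.38. Of 9 fibroblast genes 5 were lower in each genotype, with medians of -0.62 and -0.64. Over all genes 4.37% were called lower in controls and 9.71% in knockouts, the shares beside which both lists stand. The fibroblast mean per array was 9.41 to 10.57 after mock and 9.16 to 9.34 after imiquimod in controls, and 9.48 to 10.30 and 9.02 to 9.49 in knockouts. The part of either cell type in the Tpm1 values was not tested.

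Smtnl1, a smoothelin-like regulator of contraction, rose by 0.51 ± 0.16 in controls (adjusted p = 0.0479). It read 6.33, 6.03, 6.59, 6.18 and 7.04 in mock-treated and 6.84, 7.01, 7.12, 7.13 and 6.63 in imiquimod-treated controls, with overlap through mock replicate 5, and 6.20, 6.40, 6.25, 6.19 and 6.39 against 6.46, 6.37, 6.71, 6.0 and 6.73 in knockouts. This call was lost without any 1 of 15 arrays (adjusted p up to 0.133), and held without control mock replicate 5, control imiquimod replicate 5 or knockout imiquimod replicate 3, 4 or 5. It was also lost with the groups fitted alone (adjusted p = 0.098), with the replicate number as a block (0.0539), after quantile normalization (0.0656) and with the hair covariate (0.418). In all, 7 of the 42 genes were called without control mock replicate 5.

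Imiquimod was then compared with mock treatment in knockout skin, where 21 of the 42 genes were called. Of the 42 genes 19 were called lower (45.2%), against 9.71% of all genes, and 2 were called higher (4.76%), against 11.1% of all genes. The median difference of the 42 was -0.62, and that of all genes -0.002. In all, 8 of 14 fast-fibre genes, 4 of 8 shared filament genes, all 4 energy enzymes, 1 of 2 calcium channels, 1 of 3 kinases or regulators of contraction and 1 of 3 regulators of growth fell, while 0 of 7 slow-fibre genes passed in limma. Of those 7, Tnnc1 alone was at an unadjusted p under 0.05.

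Mstn, which encodes myostatin, a secreted inhibitor of muscle growth made by fast fibres, had the largest difference. It read 7.27, 6.97, 8.16, 6.85 and 9.05 in mock-treated and 7.16, 8.02, 5.76, 7.68 and 6.06 in imiquimod-treated controls. In knockouts it read 7.81, 8.53, 8.61, 7.07 and 7.69 after mock and 4.33, 5.39, 4.76, 3.91 and 5.68 after imiquimod, all 5 below every array of the other groups. Mstn fell by 3.13 ± 0.48 in knockouts (adjusted p = 8.1e-05), an 8.74-fold lower level, though the size is uncertain where values near 4 may be background. In controls the difference was -0.72 (adjusted p = 0.402).

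Mylk4, a member of the myosin light chain kinase family, read 6.53, 6.04, 7.17, 6.21 and 7.68 in mock-treated and 6.79, 7.67, 6.5, 7.45 and 6.5 in imiquimod-treated controls. Mock-treated knockouts read 7.0, 7.79, 7.82, 6.83 and 7.48, and imiquimod-treated knockouts 5.02, 5.10, 5.58, 4.81 and 5.82. The last group lay below all other arrays. The fall in knockouts was 2.12 ± 0.31 (adjusted p = 4.83e-05), a 4.34-fold lower level. Its size is uncertain too, since values as low as 4.81 to 5.82 may be background.

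The windows before the starts of both genes are shown because these genes fell most in knockouts, at chr13:32783965-32784214 on the minus strand for Mylk4 and chr1:53061390-53061639 on the plus strand for Mstn (RefSeq, build GRCm38.p6, 5′ to 3′, capitals as above).
Mylk4: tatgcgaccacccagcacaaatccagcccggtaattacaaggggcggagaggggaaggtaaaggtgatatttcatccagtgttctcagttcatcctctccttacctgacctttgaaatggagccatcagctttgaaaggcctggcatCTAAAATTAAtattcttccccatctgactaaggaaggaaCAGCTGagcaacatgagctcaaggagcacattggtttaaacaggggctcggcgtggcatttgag
Mstn: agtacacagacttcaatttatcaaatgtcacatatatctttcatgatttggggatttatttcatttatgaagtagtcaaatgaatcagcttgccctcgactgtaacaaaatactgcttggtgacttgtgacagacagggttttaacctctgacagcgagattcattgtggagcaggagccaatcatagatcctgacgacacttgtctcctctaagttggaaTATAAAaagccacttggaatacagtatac
Mylk4 held 1 E-box at 64 to 59 bases before the start and 1 wider MEF2 match at 103 to 94 bases, and Mstn held TATAAA at 29 to 24 bases.

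Pvalb, the calcium buffer parvalbumin that speeds relaxation of fast fibres, read 7.99, 7.48, 8.50, 7.32 and 9.19 in mock-treated and 7.75, 8.49, 7.39, 8.13 and 6.53 in imiquimod-treated controls. In knockouts it read 7.83, 8.80, 9.08, 7.84 and 7.67 after mock and 5.80, 6.17, 6.11, 6.13 and 6.72 after imiquimod. Control imiquimod replicate 5 reached into the range of the treated knockouts. Pvalb fell by 2.06 ± 0.37 in knockouts (adjusted p = 0.000446), a 4.16-fold lower level, and its difference in controls was -0.44 (adjusted p = 0.548).

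Actn3, the alpha-actinin of fast fibres alone, went the opposite way to Actn2. In knockouts it read 8.79, 9.31, 9.71, 8.68 and 8.66 after mock and 7.65, 7.82, 7.69, 6.96 and 8.26 after imiquimod, with no overlap, against 8.95, 8.50, 9.0, 8.20 and 9.56 and 9.13, 9.79, 8.74, 9.32 and 7.97 in controls. It fell by 1.35 ± 0.31 in knockouts (adjusted p = 0.00352).

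Mybpc2, the fast myosin-binding protein C of the thick filament, read 7.35, 7.89, 8.38, 7.28 and 7.54 in mock-treated and 6.09, 6.68, 6.28, 5.88 and 6.91 in imiquimod-treated knockouts, again without overlap. Controls read 7.47, 7.25, 7.91, 7.11 and 8.23 after mock and 7.46, 8.34, 7.48, 7.67 and 6.88 after imiquimod. The fall in knockouts was 1.32 ± 0.27 (adjusted p = 0.00139).

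Casq1, the calcium store protein calsequestrin of fast fibres, read 8.88, 9.69, 9.89, 8.90 and 8.90 in mock-treated and 7.34, 8.24, 8.11, 7.82 and 8.41 in imiquimod-treated knockouts. Controls read 9.14, 8.46, 9.58, 8.58 and 10.64 against 8.74, 9.61, 8.59, 9.21 and 8.17. The knockout groups did not overlap and the control groups did. Casq1 fell by 1.27 ± 0.35 in knockouts (adjusted p = 0.0132). Atp2a1, the fast-fibre pump that returns calcium to that store, fell by 1.23 ± 0.24 (adjusted p = 0.000872), and Ryr1, the release channel, by 0.66 ± 0.21 (adjusted p = 0.0295). Cacna1s, the voltage sensor that opens Ryr1, had a difference of -0.50 (adjusted p = 0.0741).

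Acta1, the actin of skeletal muscle thin filaments in all fibre types, read 10.63, 11.42, 11.42, 10.80 and 10.83 in mock-treated and 9.94, 10.49, 10.37, 9.48 and 10.63 in imiquimod-treated knockouts, which met at 10.63. Controls read 10.61, 10.32, 11.18, 10.43 and 11.61 after mock and 10.61, 11.27, 10.82, 11.13 and 10.56 after imiquimod. Acta1 fell by 0.84 ± 0.25 in knockouts (adjusted p = 0.021). The giant sarcomere proteins followed: Ttn, encoding titin, fell by 0.82 ± 0.20 (adjusted p = 0.00613) and Neb, encoding nebulin, by 0.57 ± 0.19 (adjusted p = 0.032). Tpm2, Des and Myot, encoding beta-tropomyosin, the intermediate filament desmin and the Z-disc protein myotilin, did not pass, with differences of -0.23, -0.03 and 0.06.

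Among thin-filament switches, the fast troponin C gene Tnnc2 fell by 0.81 (adjusted p = 0.0248) and the fast troponin T gene Tnnt3 by 0.73 (adjusted p = 0.0228), while the fast troponin I gene Tnni2 lay at -0.74 and did not pass (adjusted p = 0.0605). The fast light chain genes Mylpf and Myl1 lay at -0.85 and -0.50 and the fast Z-disc gene Myoz1 at -0.80, also without a call (adjusted p = 0.0849, 0.0828 and 0.0783). Myosin light chain kinase Mylk2 lay at -0.47 (adjusted p = 0.0712). The direction was shared by 13 of the 14 fast-fibre genes, all but Myh2.

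Slow-fibre genes were not called in knockouts, but 1 was in each covariate fit: Tnnc1 was higher with the fat genes as a covariate (0.47, adjusted p = 0.046) and Mybpc1 lower with the hair genes (-0.48, adjusted p = 0.0425). Tnnc1, the slow and cardiac troponin C gene, had a difference of 0.36 (adjusted p = 0.0735), Tnnt1 and Tnni1, slow troponins T and I, 0.26 and 0.04, and Myl2 and Myl3, slow light chains, 0.16 and 0.02. Mybpc1, the slow myosin-binding protein C, lay at -0.13 (adjusted p = 0.784) and varied over arrays from 8.10 to 9.56, more than the other 6. Those 6 genes stayed between 4.19 and 6.5, where values may be background.

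Energy enzymes of fast glycolytic fibres fell together in knockouts. Pygm, muscle glycogen phosphorylase, fell by 1.27 ± 0.31 (adjusted p = 0.00513), Ckm, muscle creatine kinase, by 1.09 ± 0.31 (adjusted p = 0.0143), Pfkm, muscle phosphofructokinase, by 1.04 ± 0.25 (adjusted p = 0.00565) and Eno3, muscle enolase, by 0.71 ± 0.25 (adjusted p = 0.0449). The myogenic transcription factor genes Myod1 and Myog had differences of 0.26 each, without a call (adjusted p = 0.133 and 0.301).

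**Figure D3:**
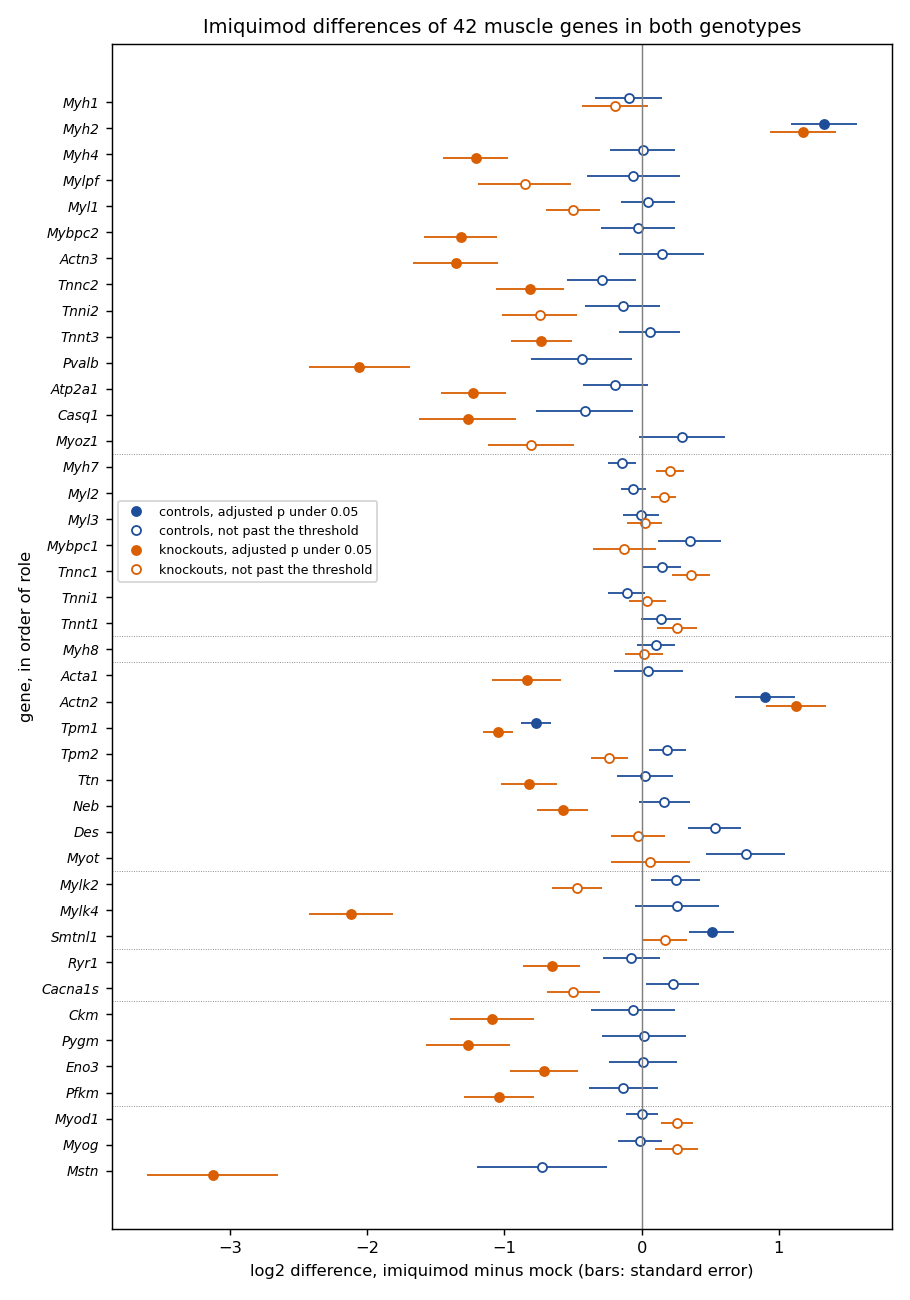
Points are log2 differences between imiquimod and mock for the 42 genes in controls (blue) and knockouts (orange), bars are standard errors from 5 arrays per group, and filled points passed an adjusted p of 0.05. Of the fast-fibre genes, at the top, 8 fell in knockouts and Myh2 rose in both genotypes.

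Fat genes moved beside these muscle genes. Of 15 measured adipocyte genes, which include Car3 of both fat and muscle, 9 were lower and 1 higher in knockouts after imiquimod, against 9.71% and 11.1% of all genes, with a mean log2 value per array of 7.65 to 9.12 after mock and 7.04 to 7.90 after imiquimod. With that mean as a covariate 7 of the 42 muscle genes were called lower, Myh4, Mybpc2, Pvalb, Atp2a1, Tpm1, Mylk4 and Mstn, against 9.3% of all genes in that fit. In it 4 were called higher, Myh2, Actn2, Tnnc1 and Myod1, against 9.45%. Leaving out 1 array at a time gave 15 to 27 called genes. In such fits 6 calls were lost: Neb, Tnnc2, Acta1 and Ryr1 without knockout mock replicate 2 or 3 or knockout imiquimod replicate 4, Tnnt3 without knockout mock replicate 3 or knockout imiquimod replicate 1 or 4, and Eno3 without any of 11 arrays (control mock 1 or 3, control imiquimod 1, 3 or 4, knockout mock 2 or 3, or knockout imiquimod 1 to 4). Neb and Tnnc2 were also lost without knockout imiquimod replicate 1, and Neb and Ryr1 without replicate 2. The Ryr1 call was lost with the mean of both its probe sets, and the Eno3 call with array weights or median centring.

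**Figure D4:**
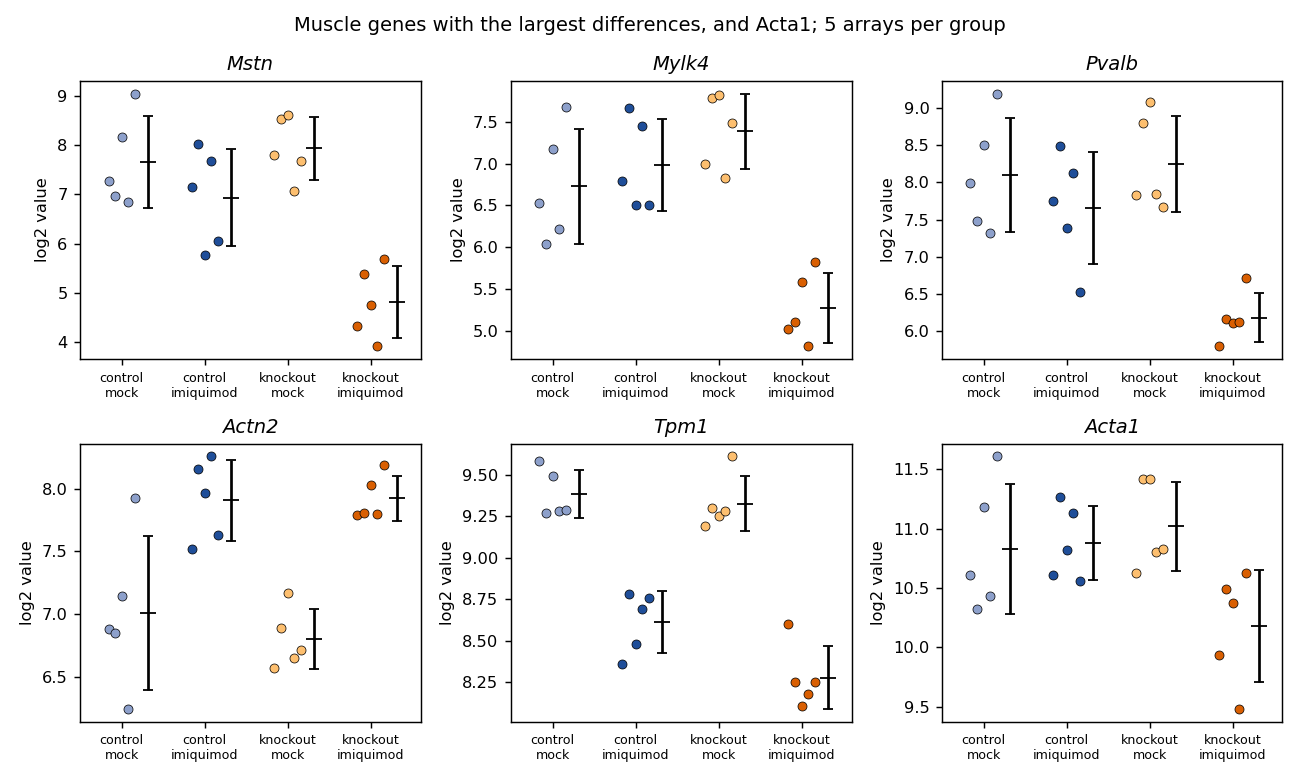
Points are log2 values of 5 arrays per group, with the mean and SD beside them, for 5 genes with large differences and for Acta1; each panel has its own vertical axis. Mstn and Mylk4 in imiquimod-treated knockouts, at 3.91 to 5.68 and 4.81 to 5.82, lie below all other arrays, and Actn2 is higher and Tpm1 lower after imiquimod in both genotypes.

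Genotypes were compared within each treatment. In mock-treated skin 0 of the 42 genes passed in limma, with 1 at an unadjusted p under 0.05, and all genes gave 0.00902% higher and 0% lower calls, with 708 at an unadjusted p under 0.05. Mylk4 had the smallest p of the 42 (log2 difference 0.66, adjusted p = 0.999), followed by Myh7 (-0.16, adjusted p = 0.999).

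Under imiquimod 4 of the 42 genes were lower in knockouts (9.52%), against 0.171% of all genes, and 0 were higher, against 0.374% of all genes. This comparison shares the imiquimod-treated knockout arrays with the one before. Mstn lay 4.35-fold lower in knockouts (log2 difference -2.12 ± 0.48, adjusted p = 0.0457), Mylk4 3.29-fold lower (-1.72 ± 0.31, adjusted p = 0.0117), Myh4 2.22-fold lower (-1.15 ± 0.24, adjusted p = 0.0275) and Mybpc2 2.29-fold lower (-1.20 ± 0.27, adjusted p = 0.0465). Arrays of both genotypes overlapped for Mybpc2 and not for the other three. Another 30 genes had a negative difference without a call. At an unadjusted p under 0.05 there were 31 of the 42 and 2218 of all 22180 genes.

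These 4 calls depended on single arrays and settings. The count was 1 or 2 without any 1 of 14 arrays and 7 without control mock replicate 5, and it was 3 to 6 without control imiquimod replicate 3 or 5, knockout mock replicate 3 or 4, or knockout imiquimod replicate 5. Mylk4 alone kept its call throughout. With the fat genes as a covariate only Mylk4 was called (-1.40, adjusted p = 0.0311), against 0.0451% of all genes lower, and with the replicate number as a block only Mylk4 and Myh4.

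The test of the difference itself, between the imiquimod responses of both genotypes, called 0 of the 42 genes in limma, against 0.018% of all genes higher and 0% lower. At an unadjusted p under 0.05 there were 19 of the 42 and 1497 of all genes. Mylk4 came closest (-2.37 ± 0.43, adjusted p = 0.0879), followed by Myh4 (-1.22 ± 0.33, adjusted p = 0.463) and Mstn (-2.40 ± 0.67, adjusted p = 0.476). Mylk4 passed with array weights (-2.57, adjusted p = 0.00836), with the hair genes as a covariate (-2.22, adjusted p = 0.00252) and without control mock replicate 5 (-2.61, adjusted p = 0.0127). No other gene of the 42 passed this test in any fit run, and Mylk4 did not in the rest.

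Muscle genes varied together between arrays of a group. Over 28 genes (fast-fibre, shared filament, calcium channel and energy genes), 26 were highest in replicate 5 of the mock-treated controls, 25 in replicate 2 of the imiquimod-treated controls, 21 in replicate 3 of the mock-treated knockouts and 23 in replicate 5 of the imiquimod-treated knockouts. The lowest arrays were replicates 4 and 2 in the first group (17 and 11 genes), replicate 5 in the second (22 genes), replicates 4 and 1 in the third (13 and 10 genes) and replicates 1 and 4 in the fourth (15 and 12 genes). Means of adipocyte, fibroblast and macrophage genes were also highest in control mock replicate 5 (8.44, 10.57 and 8.04). The same held in knockout mock replicate 3 (9.12, 10.30 and 8.06). Basal keratinocyte means were not highest in either array. In the highest arrays after imiquimod, of the lists just named only the macrophage mean of controls was highest as well. Smooth muscle means were highest in both of the mock arrays (6.48 and 6.65) and in neither imiquimod array. Endothelial means were highest in both of the knockout arrays (7.135 and 6.74) and in neither control array. Cardiac and Schwann cell means were highest in both of the control arrays (5.26 and 5.42, 6.22 and 5.84) and in neither knockout array. A shift common to a whole sample was not tested.

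With group means removed, 10 genes were correlated with Myh4 over the 20 arrays by permutation within groups, with Benjamini-Hochberg adjustment over the 10. Ckm gave r = 0.83 and rho = 0.77 (adjusted permutation p = 0.0014 and 0.00183), Acta1 0.78 and 0.74 (0.00173 and 0.00202), Des 0.74 and 0.76 (0.00173 and 0.00183) and Pvalb 0.70 and 0.69 (0.0023 and 0.00364). Without the 2 arrays farthest from the Myh4 median, knockout imiquimod replicates 4 and 1, these r were 0.80, 0.71, 0.77 and 0.84. Those arrays were chosen before group means were removed, and control mock replicate 5 stayed in. The check therefore cannot show whether arrays far from their own group mean carry the correlations. Myh2 gave r = 0.66 and rho = 0.56 (adjusted permutation p = 0.0123 and 0.0226). Without those 2 arrays its r was 0.54 and did not pass (adjusted permutation p = 0.102).

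The fat gene Adipoq, which encodes adiponectin, also varied with Myh4, with r = 0.53 and rho = 0.61 (adjusted permutation p = 0.00847 and 0.0103, and r = 0.49 without those 2 arrays). Myh1, Myh7 and Tnnc1 did not pass, with r = 0.32, 0.31 and 0.07 (adjusted permutation p = 0.261, 0.237 and 0.804). For the hair gene Krt71 no coefficient is given, since the arrays fell into separate clusters in hair genes.

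Inside groups, arrays that stood apart in hair levels lay the opposite way in fast-fibre genes. The mean of 24 hair follicle genes was 5.98 in control mock replicate 5 and 9.19 to 10.17 in the other mock-treated controls, and the mean of the 14 fast-fibre genes was 9.85 there and 8.42 to 9.14 in the others. In imiquimod-treated controls replicate 5 was high in hair genes, at 9.28 against 5.38 to 5.95, and its fast-fibre mean was 8.46 against 8.77 to 9.5. Mock-treated knockout replicates 3 and 2 had hair means of 5.97 and 7.82 against 9.70 to 10.14, and fast-fibre means of 9.49 and 9.16 against 8.63 to 8.71. Imiquimod-treated knockout replicates 1 and 4 had hair means of 9.07 and 7.36 against 5.59 to 5.86, and fast-fibre means of 7.79 and 7.72 against 8.17 to 8.47. In every group, then, the arrays set apart by low hair levels were the highest in fast-fibre genes and those set apart by high hair levels the lowest.

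**Figure D5:**
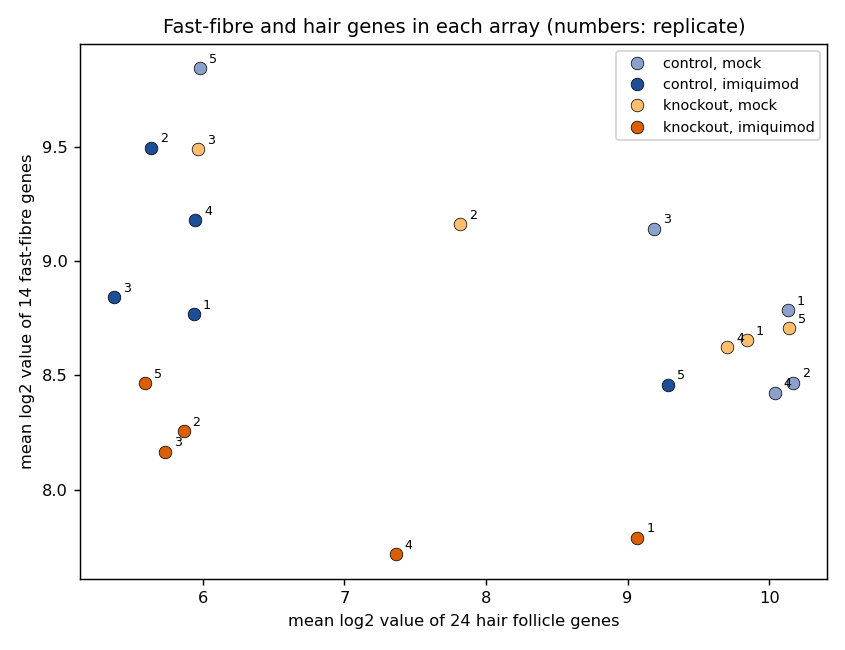
Each point is 1 array, with its replicate number, placed by the mean log2 value of 24 hair follicle genes and of 14 fast-fibre genes; colours are the 4 groups. At low hair levels the imiquimod-treated knockouts (8.17 to 8.47) lie below the control arrays (8.77 to 9.85), and arrays with high hair levels lie lower within each group.

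Median hair levels were 10.04 and 9.70 in mock-treated controls and knockouts and 5.93 and 5.86 after imiquimod. The group ranges overlapped, and limma called 0 of the 24 hair genes in each comparison. All 24 were at an unadjusted p under 0.05 for imiquimod in controls, against 5300 of all 22180 genes. In knockouts 8 of the 24 were, against 6925 of the 22180, a similar share. With the hair mean as a covariate, 14 of the 42 genes were called lower in imiquimod-treated against mock-treated controls, against 3.9% of all genes, and 1 was called higher, against 5.35%, Myh2 at 1.09 (adjusted p = 0.0114). Among the 14 were Pvalb at -1.31, Casq1 at -1.26 and Mylpf at -0.89. That fit also called 22 of the 42 lower in knockouts than in controls under imiquimod, against 0.807% of all genes. With 1 array a group left out, that farthest from the rest in hair genes, a choice made after the data were seen, 6 genes were higher and 1 lower in treated controls, against 8.16% and 7.99% of all genes, among them Myot at 1.11, Des at 0.81 and Mybpc1 at 0.58, and 6 were lower in knockouts than controls under imiquimod, against 0.0992%. In control skin, fast-fibre genes other than Myh2 were thus called with the hair covariate, and neither in the main fit nor without those arrays. Myh2 and Tpm1 were called in each of these fits. Without those arrays, hair means of controls were 9.19 to 10.17 after mock and 5.38 to 5.95 after imiquimod. With no overlap, that fit cannot separate hair levels from treatment.

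Other muscle genes were read from a list of 93, of which 87 were measured. In controls imiquimod raised 9 (10.3%, against 6.47% of all genes) and lowered 2 (2.3%, against 4.37%). Sln, encoding sarcolipin, an inhibitor of the calcium pump, rose 4.07-fold, from 6.67 ± 0.65 to 8.70 ± 0.47 (SD, n = 5 each, adjusted p = 0.000714), and Ankrd2, a stretch-responsive ankyrin repeat gene, 3.66-fold, from 5.53 ± 0.19 to 7.40 ± 0.15 (adjusted p = 8.09e-08). Fbxo32, encoding the atrophy-related ubiquitin ligase atrogin-1, fell by 1.16 (adjusted p = 0.000343) and Eya1, a cofactor of the fast-fibre programme, by 0.87 (adjusted p = 0.00216).

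In knockouts 7 of the 87 rose (8.05%, against 11.1% of all genes) and 10 fell (11.5%, against 9.71%), shares near those of all genes. Ankrd2 rose 3.52-fold (log2 difference 1.82 ± 0.16, adjusted p = 8.67e-08), and Myoz2, a Z-disc gene of slow and cardiac muscle, 2.92-fold (1.55 ± 0.23, adjusted p = 6.18e-05). Their differences in controls were 1.87 and 1.54. Fbxo32 fell by 1.77 (adjusted p = 1.51e-06), and Tcap, encoding the titin cap protein telethonin, by 1.09 (adjusted p = 0.00373). Between genotypes under imiquimod 1 of the 87 passed: Atp2a2, the calcium pump of slow and cardiac muscle that many other cells also express, was higher in knockouts by 0.33 ± 0.07 (adjusted p = 0.0271). That is 1.15% of the list, against 0.374% of all genes. In limma 0 of the 87 passed between genotypes in mock-treated skin and 0 for the difference of responses. Over all genes 0.00902% and 0.018% were called higher and 0% lower in each. Those of the 87 at an unadjusted p under 0.05 were 2 and 12, against 708 and 1497 of all 22180 genes.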

How the data were processed

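Skin RNA was extracted with Trizol and a column and 200 ng were labelled with WT PLUS reagents (per the labels' protocols). The deposited table holds the authors' values, read as log2, of 41345 probe sets for 20 arrays. The sources used here do not give the log base, summarisation, normalization or software. Of these, 23521 probe sets had 1 platform symbol, 1814 several and 16010 none; the brightest per symbol was kept, without a filter on dim genes.

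Differences were fitted over all 22180 genes in R 4.3.3 with limma 3.58.1 (lmFit, eBayes, 1 mean per group, 16 residual degrees of freedom), two-sided, with Benjamini-Hochberg adjustment and a threshold of 0.05; the code was tested on simulated data. Folds are antilogs. Precision is limited by the number of arrays (median SE of the 42 genes, 0.23). P-values measure the spread between animals.

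Members, lists and tests were chosen with earlier results of these data known. Values are given by array for Myh1, Myh2, Myh4, Myh7, Acta1 and, per comparison, up to 6 called genes with the largest differences (the 2 smallest p where none passed). From the list of other muscle genes the 2 largest rises and falls were named; genes named from the hair-based fits and from other lists were chosen after their values were seen. Alternatives were a fit of only the groups compared, the replicate number as a block, a trended or robust prior, array weights, quantile or median scaling, the mean of probe sets, a filter on the dimmest 30%, hair or fat covariates and each array left out.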

Additional observations from a re-analysis of the deposited data

Results flagged for a closer look

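In 3 of 56 sets of 5 arrays (14 genes in 4 groups), 1 array stood far from the rest, its gap to the nearest array taking more than 0.71 of the range. Chance marks about 1 in 20 such sets. Tpm1 read 9.61 in knockout mock replicate 5, with the next array at 9.30. It read 8.60 in knockout imiquimod replicate 1, with the next at 8.25. Myh4 read 8.63 in knockout imiquimod replicate 4, with the next at 9.51.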

How the results depend on the processing

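Of the 42 genes, 4 were called for imiquimod in controls, 2 with only the groups compared, 15 with the hair covariate, 7 without the array of each group farthest in hair genes (added after seeing the data) and 3 to 7 without 1 array. In knockouts 21 were called, 26 with only the groups compared, 11 with the fat covariate and 15 to 27 without 1 array. With the hair covariate 30 were called there, 28 of them lower, against 12.1% of all genes. Between genotypes under imiquimod 4 were called, 1 with only the groups compared or the fat covariate, 2 with the replicate block, robust prior or median centring, 9 with array weights, 22 with the hair covariate and 1 to 7 without 1 array. For the difference of responses 0 were called, and 1 with array weights, the hair covariate or without control mock replicate 5 (0 to 1 without 1 array). In mock-treated skin the count was 0 in every fit run. Zfp36 in mock-treated skin lay at -2.45 to -1.54 without 1 array, and at -1.85 to -1.37 under imiquimod. The correlation of Myh2 with Myh4 was 0.54 without the 2 farthest arrays (adjusted permutation p = 0.102). Same-numbered arrays of 2 groups deviated with correlations from -0.71 to 0.43, so replicate numbers did not pair them; the replicate block changed no other count of the 42 by more than 1.5 times. No called direction reversed. Low values, as of Myh7 or of Mstn and Mylk4 in treated knockouts, have no measured background.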

Other observations

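Nppb, which encodes a natriuretic peptide of heart muscle, rose with imiquimod by 2.38 ± 0.30 in controls and by 1.55 ± 0.30 in knockouts (SE, n = 5 per group, adjusted p = 1.51e-05 and 0.000863). It was the 1 member called of 9 cardiac genes, against 6.47% of all genes called higher in controls and 11.1% in knockouts. Myh6, the cardiac myosin gene, read 3.66 to 4.47 over all arrays. A second probe set of Ckm, with a mean of 5.42, gave -0.23 in knockouts after imiquimod (adjusted p = 0.445 over all probe sets), against -1.09 by the brighter one. A second probe set of Ryr1 gave -0.03 (adjusted p = 0.914), against -0.66.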
